A study of Mus musculus with 8 samples.

Results

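Laminins, nidogens and basement membrane proteoglycans were described here through 10 genes chosen by name: the laminin chains Lama2, Lama4, Lama5, Lamb1, Lamb2 and Lamc1, the nidogens Nid1 and Nid2, perlecan (Hspg2) and agrin (Agrn). All 10 were among the 38926 gene symbols counted, and all 10 passed the filter on low counts that left 16370 genes to test. The RNA came from mouse bladder. The NeMO group (4 libraries) carried a nerve-sparing partial obstruction of the bladder outlet made by surgery, and the Sham group (4 libraries) had a sham operation. The sources used here do not give strain, sex, age or time after surgery. They also do not say whether libraries are separate animals, so a p-value speaks only to the variation among these 8 libraries, which may be technical. Library totals ran from 27212499 to 36375313 counts. A batch mark in the submitted file names put NeMO replicates 1 and 3 and Sham replicates 1, 2 and 3 in batch 1, and NeMO replicates 2 and 4 and Sham replicate 4 in batch 2.

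Basement membranes are thin sheets of matrix under epithelium and endothelium and around smooth muscle, Schwann and fat cells. Laminins are trimers of an alpha, a beta and a gamma chain that bind integrins and dystroglycan, and many of them, though not all, polymerise on the cell surface. Nidogens connect the laminin gamma 1 chain to type IV collagen, and perlecan and agrin carry heparan sulfate chains that bind growth factors. In the bladder, basement membranes lie under the urothelium, around vessels and around each detrusor muscle cell. The messenger RNAs of these proteins are long, so a trend of the libraries with transcript length bears on every one of them.

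None of the 10 genes passed the test of NeMO against Sham across all genes (edgeR's quasi-likelihood test, adjusted p under 0.05). The largest differences were in Nid1, with a log2 fold change of 0.60 (SE 0.18, edgeR adjusted p = 0.160), and Lama2, with 0.57 (SE 0.19, edgeR adjusted p = 0.182). Lamc1 followed with 0.34 (SE 0.10, edgeR adjusted p = 0.139). Across the series 12 of 16370 genes, or 0.0733%, passed that test (0.0428% higher and 0.0305% lower), and 0 of 10 members did. DESeq2's Wald test on the same libraries called 3 of the 10 higher, with adjusted p = 0.0241 for Nid1, 0.0266 for Lamc1 and 0.0423 for Lama2, and none lower. Of the 15086 genes to which it gave an adjusted p it called 6.32%, with 3.6% higher and 2.72% lower. These shares cover genes of every length, and no DESeq2 share among long genes was computed. In whole bladder, a change in the number of cells of a type and a change in RNA per cell cannot be told apart.

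**Figure D1:**
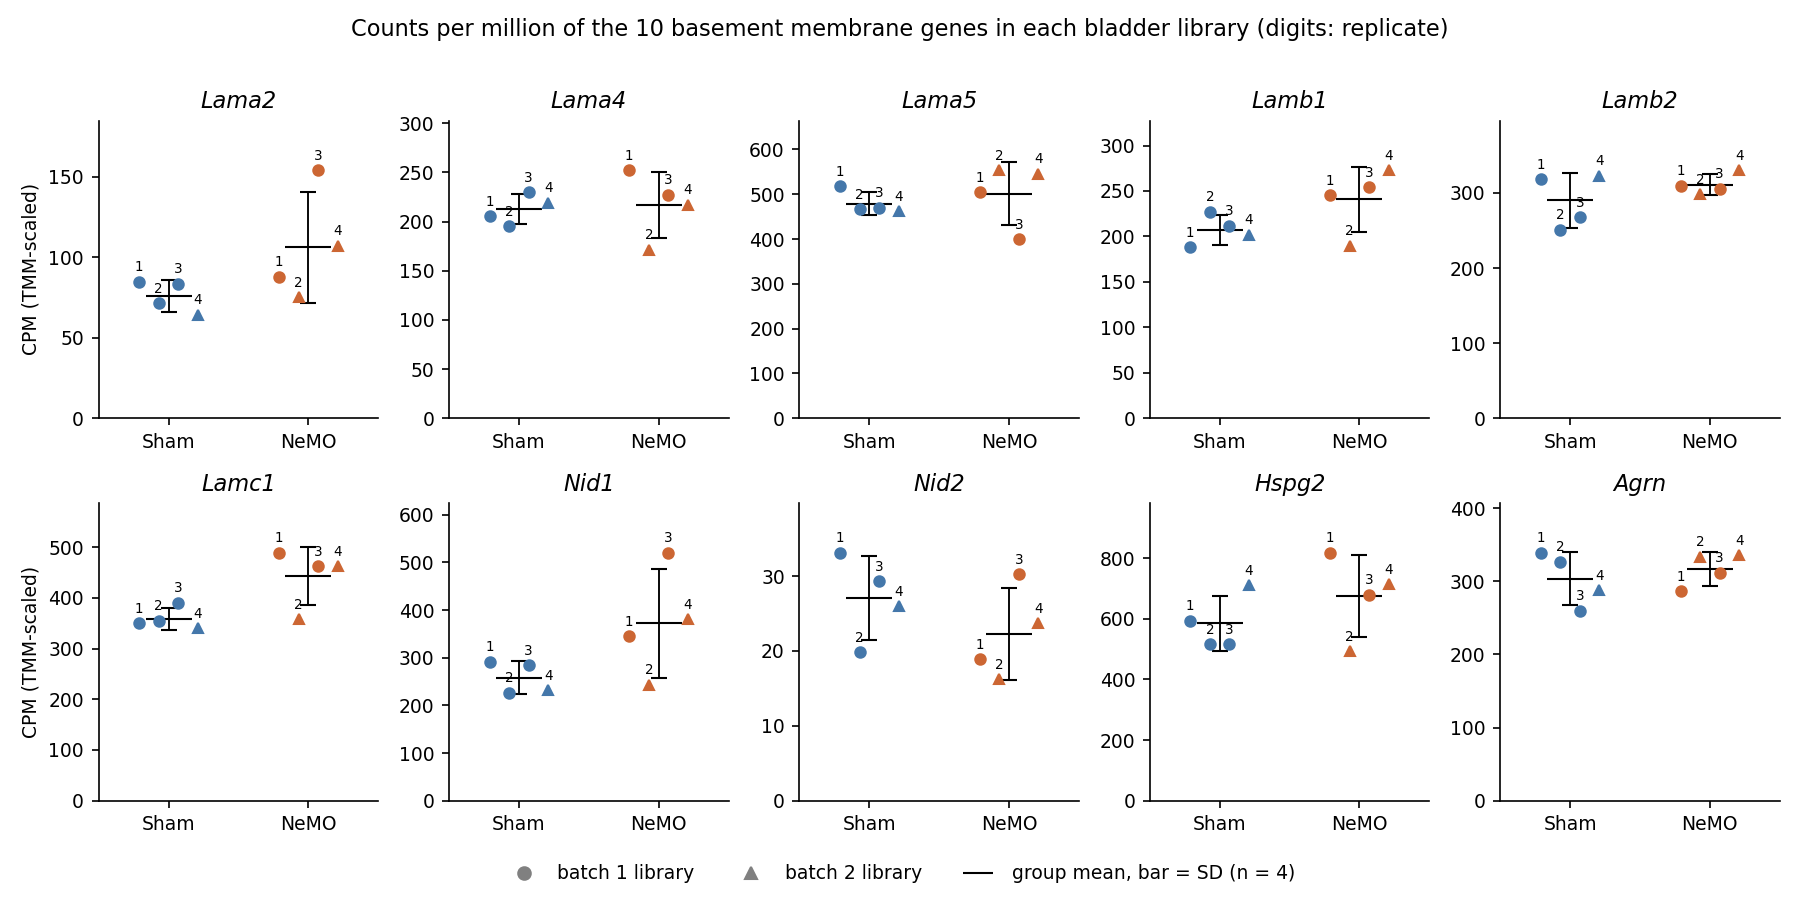
CPM (counts scaled to library size) of the 10 genes in each library, with the y axis of each panel starting at 0; points are libraries (circles batch 1, triangles batch 2, digits the replicate), and the horizontal mark and bar are the mean and SD of 4 libraries. NeMO and Sham values overlapped for all 10 genes, and NeMO replicate 3 stood highest for Lama2 and Nid1.

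Upstream sequence from RefSeq (GRCm38.p6) was found for 7 of the 10 genes and is shown for 3 of them: Nid1 and Lama2, whose fold changes were the largest, and Agrn, which stood near 0. The windows hold up to 250 bases before the RefSeq start, cut where an annotated GENCODE exon begins, and capitals mark the GC box letters GGGCGG on either strand, overlapping matches included. Nid1 is shown for chr13:13437352-13437550 (plus strand), Lama2 for chr10:27616943-27617192 (minus strand, inside the span of a longer annotated gene model) and Agrn for chr4:156197489-156197738 (minus strand).
Nid1: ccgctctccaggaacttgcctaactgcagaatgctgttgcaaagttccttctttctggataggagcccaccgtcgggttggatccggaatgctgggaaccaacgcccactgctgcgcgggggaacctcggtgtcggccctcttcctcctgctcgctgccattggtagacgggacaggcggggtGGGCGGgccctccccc
Lama2: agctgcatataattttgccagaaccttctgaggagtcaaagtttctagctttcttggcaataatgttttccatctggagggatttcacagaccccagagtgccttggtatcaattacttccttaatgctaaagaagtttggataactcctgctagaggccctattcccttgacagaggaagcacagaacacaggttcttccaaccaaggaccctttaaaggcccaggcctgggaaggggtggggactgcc
Agrn: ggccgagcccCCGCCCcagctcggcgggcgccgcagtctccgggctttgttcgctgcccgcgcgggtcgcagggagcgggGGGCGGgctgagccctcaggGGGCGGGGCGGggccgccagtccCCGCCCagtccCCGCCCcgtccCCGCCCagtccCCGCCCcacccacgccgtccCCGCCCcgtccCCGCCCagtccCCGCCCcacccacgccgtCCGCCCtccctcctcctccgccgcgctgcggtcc
The Nid1 stretch held 1 GC box, 13 CpG dinucleotides and a GC content of 63.8%. The Lama2 stretch held no GC box, 0 CpG and a GC content of 47.2%, and the Agrn stretch held 12 GC boxes, 35 CpG and a GC content of 83.6%. Nid1 and Lama2 did not share this feature. RefSeq lists another start for Agrn, not shown, whose stretch held 2 GC boxes. GC boxes occurred in the 250-base window of 5 of the 7 genes and in 32.7% of 32851 RefSeq windows of that length, whose median GC content was 52.4%. The letters GGAATG (TEAD element) occurred on either strand once in the Nid1 stretch and in 12.6% of all windows. The AP-1 element, searched as TGACTCA, matched in none of the 7 genes and in 4.46% of all windows. For the TATA box, searched on either strand as the letters TATAAA, the share was 12.4% of all windows, with no match in the 7 genes.

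Levels were compared between genes only as CPM (counts scaled to library size by TMM) per kilobase of the longest annotated transcript. In Sham, Lamb2 had the highest level at 51.5 ± 6.42 CPM per kilobase (mean ± SD, n = 4), followed by Lamc1 at 47.1 ± 2.85. Nid1 stood at 42.4 ± 5.57, Lama5 at 42.1 ± 2.32 and Hspg2 at 41.2 ± 6.47. Lamb1 at 35.8 ± 2.85, Agrn at 35.2 ± 4.215 and Lama4 at 35.1 ± 2.52 were next. Each of these 8 genes overlapped its neighbour among them over the Sham libraries, so the order of neighbours is not resolved. The lowest Sham values of Lamb2, Lamc1 and Lama5 (44.6, 44.7 and 40.6) lay above the highest of Lamb1, Agrn and Lama4 (39.3, 39.4 and 38.0). Lama2 at 7.91 ± 1.03 and Nid2 at 5.55 ± 1.16 lay well below, with a 4.44-fold step between the means of Lama4 and Lama2 and no overlap of their libraries. Over the union of annotated exons in place of the longest transcript, the Sham means of Lama4 and Lamb1 were 17.6 and 20.9 CPM per kilobase. In NeMO the highest mean was that of Nid1 at 61.2 ± 18.8 CPM per kilobase, and Lama2 and Nid2 again stood last at 11.04 ± 3.60 and 4.57 ± 1.26.

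**Figure D2:**
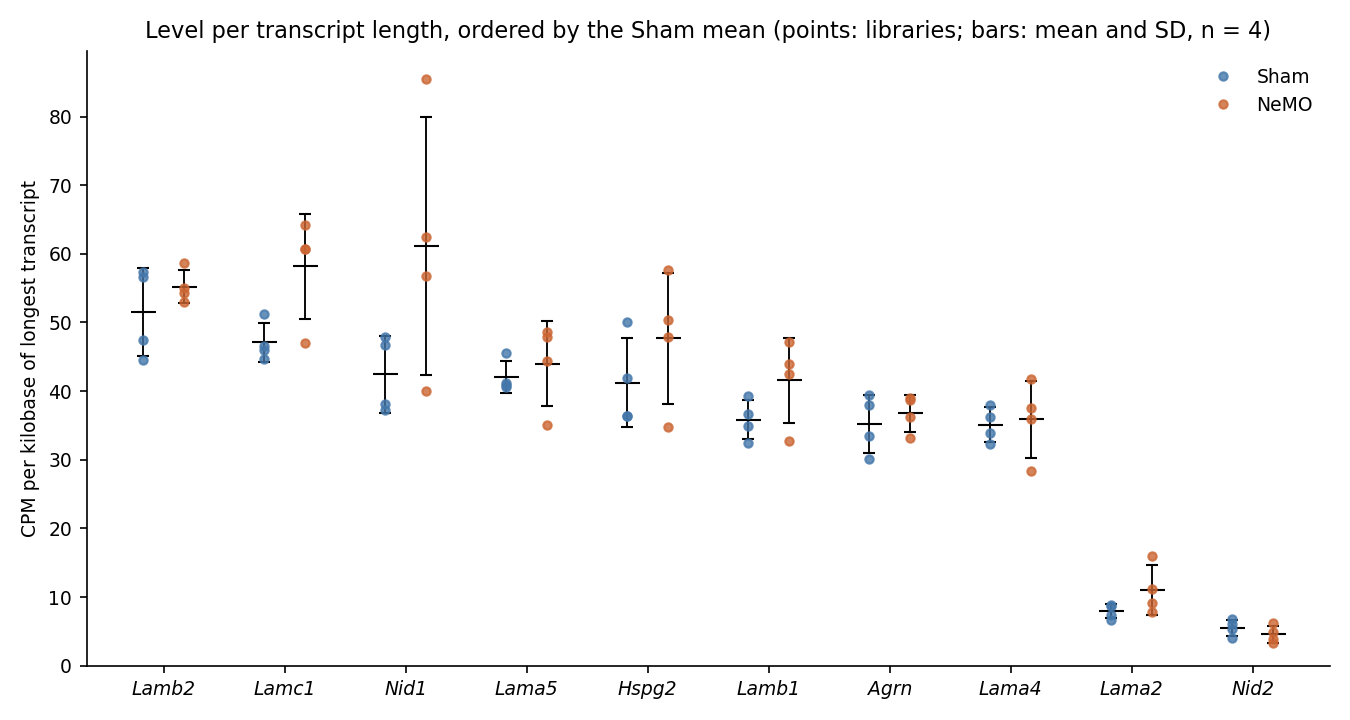
CPM per kilobase of the longest transcript for each gene, ordered by the Sham mean; points are libraries and bars the mean and SD of 4. Of the 10 genes, 8 lay between 35.1 and 51.5 in the Sham mean, and Lama2 and Nid2 lay at 7.91 and 5.55.

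Among the alpha chains, which give each laminin its receptor binding, Lama2 encodes the chain typical of muscle and Schwann cell basement membranes. It measured 87.9, 75.3, 154 and 107 CPM in NeMO replicates 1 to 4 and 84.9, 71.4, 83.6 and 64.3 CPM in Sham replicates 1 to 4. Of the NeMO libraries 3 lay above every Sham library, and NeMO replicate 2 lay among them. Without NeMO replicate 3 the log2 fold change of Lama2 was 0.31, and without NeMO replicate 1 it was 0.75 with an edgeR adjusted p of 0.0427.

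Lama4, the alpha chain of endothelial basement membranes and of several mesenchymal cells, measured 252, 171, 227 and 217 CPM in NeMO and 205, 195, 230 and 219 CPM in Sham. Its log2 fold change was 0.06 (SE 0.11, edgeR adjusted p = 0.818). Lama5, the alpha chain of epithelial and mature endothelial basement membranes, measured 505, 554, 400 and 546 CPM in NeMO and 518, 466, 470 and 462 CPM in Sham, and its log2 fold change was 0.02 (SE 0.11, edgeR adjusted p = 0.931). For both genes the NeMO libraries spread on either side of the Sham libraries. NeMO replicate 2 had the highest Lama5 and the lowest Lama4, and NeMO replicate 3 had the lowest Lama5. Of the summed per-kilobase level of these 3 alpha chains, Lama5 made up 49.4 ± 2.12% in Sham and 48.5 ± 7.43% in NeMO, Lama4 41.3 ± 2.44% and 39.3 ± 4.72%, and Lama2 9.28 ± 0.915% and 12.2 ± 4.09% (SD, n = 4 each). These shares depend on the length used: over the union of annotated exons Lama5 made up 65.4% in Sham and 64.1% in NeMO, Lama4 27.4% and 26.3%, and Lama2 7.22% and 9.60%.

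The beta and gamma chains are shared by many laminins. Lamc1, the gamma chain that holds the nidogen binding site, measured 489, 358, 463 and 463 CPM in NeMO and 350, 355, 390 and 341 CPM in Sham. NeMO replicates 1, 3 and 4 lay above all Sham libraries and NeMO replicate 2 lay within the Sham range. Its fitted difference was 1.27-fold, and its log2 value stayed between 0.29 and 0.40 when each library was left out in turn. Lamb1 measured 246, 190, 254 and 273 CPM in NeMO and 188, 227, 212 and 202 CPM in Sham, a fitted 0.24 on the log2 scale (SE 0.12, edgeR adjusted p = 0.317). The same 3 NeMO libraries lay above Sham for Lamb1. Lamb2, the beta chain of muscle and vessel laminins, measured 310, 298, 305 and 330 CPM in NeMO and 318, 251, 267 and 323 CPM in Sham (0.08, SE 0.10, edgeR adjusted p = 0.709), with 1 NeMO library above the Sham range.

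Nid1, the more abundant linker, measured 346, 244, 521 and 381 CPM in NeMO and 291, 227, 284 and 232 CPM in Sham. NeMO replicates 1, 3 and 4 lay above every Sham library. Its fitted difference was 1.52-fold, and without NeMO replicate 3 its log2 fold change was 0.40 in place of 0.60. Nid2, its paralogue, measured 18.9, 16.3, 30.2 and 23.7 CPM in NeMO and 33.1, 19.8, 29.3 and 25.9 CPM in Sham (−0.24, SE 0.22, edgeR adjusted p = 0.600), the only negative value among the 10. NeMO replicates 1 and 2 lay below the Sham range for Nid2 and the other two within it. Leaving out NeMO replicate 1 gave a log2 fold change of −0.092, and leaving out NeMO replicate 3 gave −0.46.

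The ratio of Nid1 to Nid2 counts within a library does not depend on how libraries are scaled. Its log2 value was 4.19, 3.91, 4.11 and 4.01 in NeMO replicates 1 to 4 and 3.14, 3.51, 3.28 and 3.16 in Sham replicates 1 to 4, so all 4 NeMO libraries lay above all 4 Sham libraries. The means were 4.05 ± 0.12 and 3.27 ± 0.17 (SD, n = 4 each), a difference of 0.78 on the log2 scale or 1.72-fold. The two-sided exact permutation p was 0.0286, the smallest that 4 against 4 allows, and 0.171 after Benjamini-Hochberg adjustment over the 6 ratios computed, so the ratio did not pass the threshold. The ratios were chosen with earlier results of these data known, which neither value takes into account. The difference was 0.84 within batch 1 and 0.79 within batch 2, and 0.73 to 0.86 when each library was left out. Nid1 made up 93.0 ± 0.565% of the summed per-kilobase level of the nidogens in NeMO and 88.5 ± 1.18% in Sham. The trend of all genes with transcript length differs by 0.04 on the log2 scale between the lengths of these genes.

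Exons of Nid2 overlap those of 2700060E02Rik (Rtraf in GENCODE), on the opposite strand, over 437 bases or 8.45% of the exonic length of Nid2. That gene measured 67.8 ± 3.12 CPM in NeMO and 78.0 ± 3.49 in Sham, a fitted −0.20 on the log2 scale (SE 0.07, edgeR adjusted p = 0.182). The sources used here do not give the strand setting of the counting, and the part of that overlap in the Nid2 counts was not tested. Antisense transcripts that share 143 bases with Nid1 exons and 631 bases with Lama2 exons were not analysed here.

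**Figure D3:**
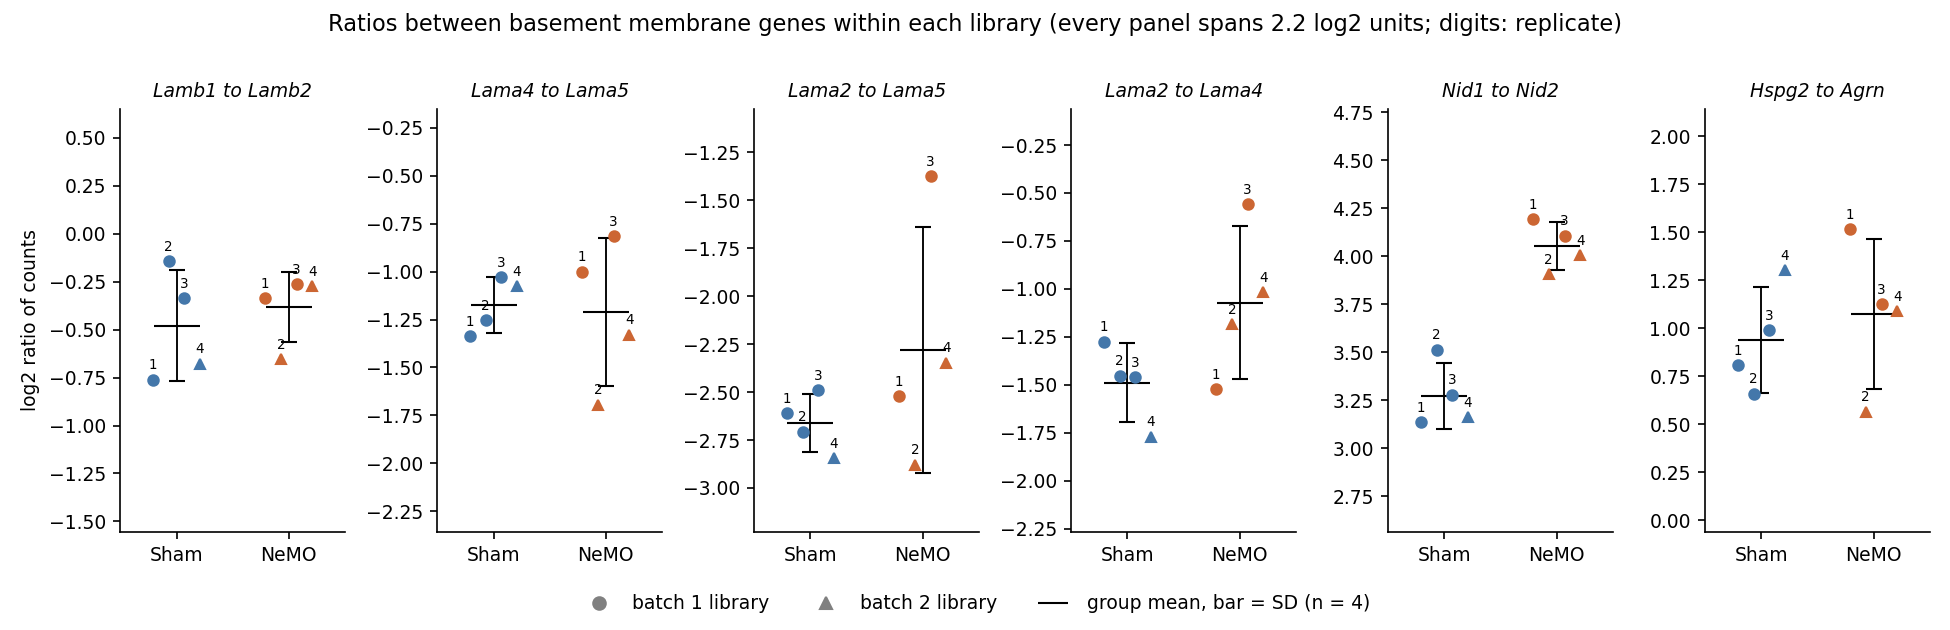
Log2 ratio of counts between pairs of genes in each library, every panel spanning the same range of log2 units; points are libraries (circles batch 1, triangles batch 2, digits the replicate), bars the mean and SD of 4. Groups did not overlap for Nid1 to Nid2 (means 4.05 and 3.27) and overlapped in the other 5 panels.

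The other 5 ratios overlapped between the groups. Lama2 to Lama4 differed by 0.42 on the log2 scale (NeMO minus Sham, exact permutation p = 0.114, 0.343 adjusted over the 6 ratios, n = 4 each), with 0.35 in batch 1 and 0.67 in batch 2, and 0.25 (without NeMO replicate 3) to 0.57 (without NeMO replicate 1) when 1 library was left out. Lama2 to Lama5 differed by 0.38 (exact permutation p = 0.343, adjusted 0.686), with 0.65 and 0.23 in the batches, and 0.080 without NeMO replicate 3. Lamb1 to Lamb2 differed by 0.10 (exact permutation p = 0.657, adjusted 0.789), with 0.11 and 0.21, and 0.0041 without Sham replicate 1. Hspg2 to Agrn differed by 0.13 (exact permutation p = 0.571, adjusted 0.789) and took opposite signs in the batches, 0.50 in batch 1 and −0.47 in batch 2. Lama4 to Lama5 differed by −0.04 (exact permutation p = 0.914, adjusted 0.914) and also changed sign, 0.30 in batch 1 and −0.43 in batch 2. Batch 2 holds 1 Sham library, so its values have no spread in Sham.

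Of the proteoglycans, perlecan (Hspg2) had 14912 to 28553 counts a library. It measured 818, 494, 680 and 714 CPM in NeMO and 594, 516, 517 and 711 CPM in Sham, a fitted 0.21 on the log2 scale (SE 0.17, edgeR adjusted p = 0.543). NeMO replicate 1 was highest and NeMO replicate 2 lowest of all 8 libraries, and Sham replicate 4 stood level with NeMO replicate 4. Its log2 fold change was 0.47 in batch 1 and −0.23 in batch 2, 0.070 without NeMO replicate 1 and 0.46 without Sham replicate 4. Agrin (Agrn), known from the neuromuscular junction and also a component of epithelial and vessel basement membranes, measured 286, 334, 312 and 335 CPM in NeMO and 339, 327, 260 and 288 CPM in Sham (0.05, SE 0.11, edgeR adjusted p = 0.856). Every NeMO value of Agrn lay inside the Sham range.

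NeMO replicate 2 was the lowest NeMO library for 8 of the 10 genes, all but Lama5 and Agrn, and NeMO replicates 1, 3 and 4 were each the highest NeMO library for 3. Summed over the 10 genes, NeMO libraries held 2734 to 3390 CPM and Sham libraries 2656 to 2923 CPM.

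Of the 10 genes, 9 had a positive log2 fold change and the median was 0.14, where 48.3% of all genes tested were positive with a median of −0.01. At an unadjusted p under 0.05, 3 of the 10 were higher (Nid1, Lama2 and Lamc1) and none lower, against 9.38% and 9.14% of all genes tested. None of the 10 had groups without overlap, against 8.19% of all genes tested. That general background is not the closest one, because the members are long: their longest transcripts run from 4876 nucleotides (Nid2) to 14187 (Hspg2), with a median of 6856.5, where the median over tested genes was 3212. Among the 3625 tested genes at least as long as Nid2, the median log2 fold change was 0.13, 72.9% were positive and 24.99% were higher at an unadjusted p under 0.05. Among the 12557 shorter genes the median was −0.05, 41.1% were positive and 4.93% were higher. The members' count of 3 in 10 and their median of 0.14 stood close to those of other long transcripts. Across genes, the Spearman correlation of a library's deviation with transcript length lay between 0.0025 and 0.260 in the NeMO libraries, and between −0.268 and −0.0026 in the Sham libraries.

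**Figure D4:**
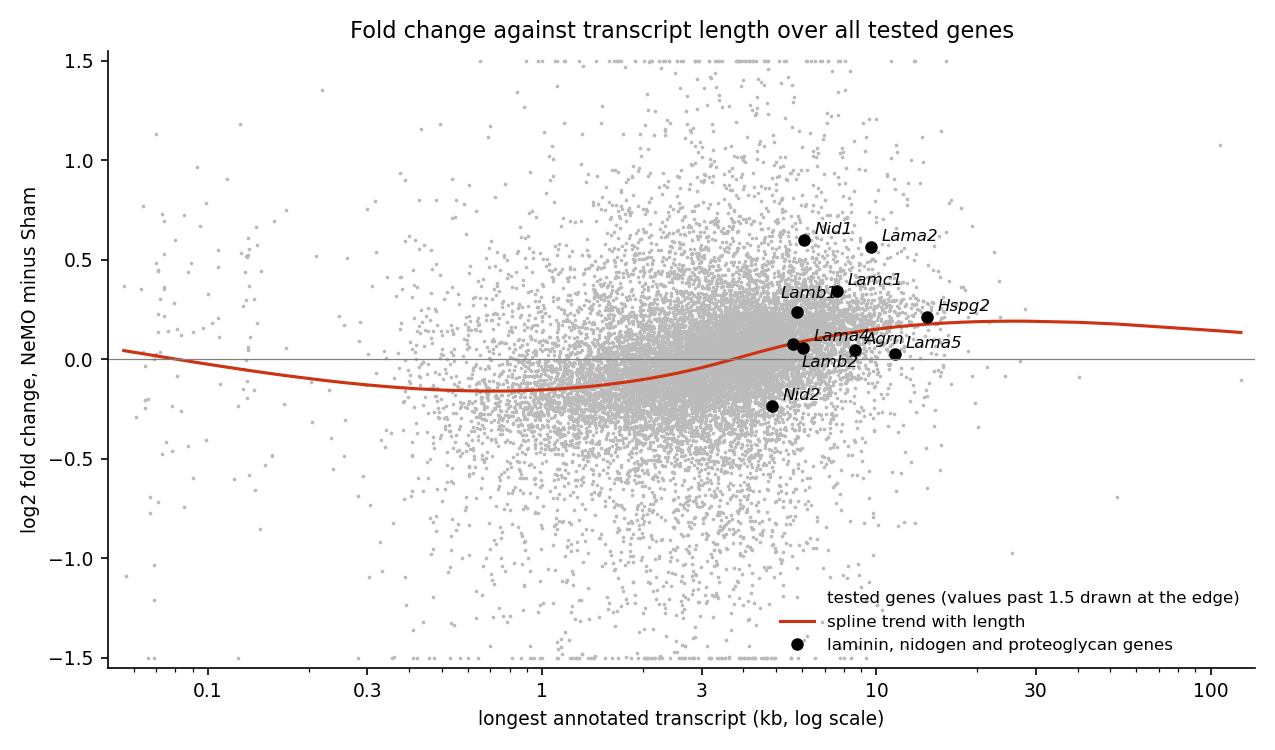
Log2 fold change (NeMO minus Sham) of each tested gene against the length of its longest annotated transcript on a log axis, with the 10 genes in black and the spline trend over all genes in red; values past 1.5 are drawn at the edge. The members lie in the long part of the trend, with Nid1 (0.60) and Lama2 (0.57) above the line and Nid2 (−0.24) below it.

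At the members' own lengths the trend of all genes stood between 0.05 (Nid2) and 0.18 (Hspg2) on the log2 scale, and 5 of the 10 genes lay above it. Nid1 lay 0.51 above its trend value of 0.09, Lama2 0.42 above 0.15, Lamc1 0.22 above 0.12 and Lamb1 0.15 above 0.08. Hspg2 lay 0.03 above. Nid2 stood at −0.24 against a trend value of 0.05. Lama5, at 11388 nucleotides, had a trend value of 0.16 and a measured 0.02. With each library's length trend taken as an offset in the fit, 5 of the 10 were positive and the median was 0.02. The length trends of the NeMO and Sham libraries did not overlap, so this offset also takes out any treatment difference that follows length. Technical and biological parts of the trend cannot be told apart here. In that fit Nid1 stood at 0.51 (SE 0.18, edgeR adjusted p = 0.305), Lama2 at 0.42 (SE 0.18, edgeR adjusted p = 0.388) and Lamc1 at 0.22 (SE 0.10, edgeR adjusted p = 0.404). Adding GC content to the offset gave 6 positive genes and a median of 0.06.

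**Figure D5:**
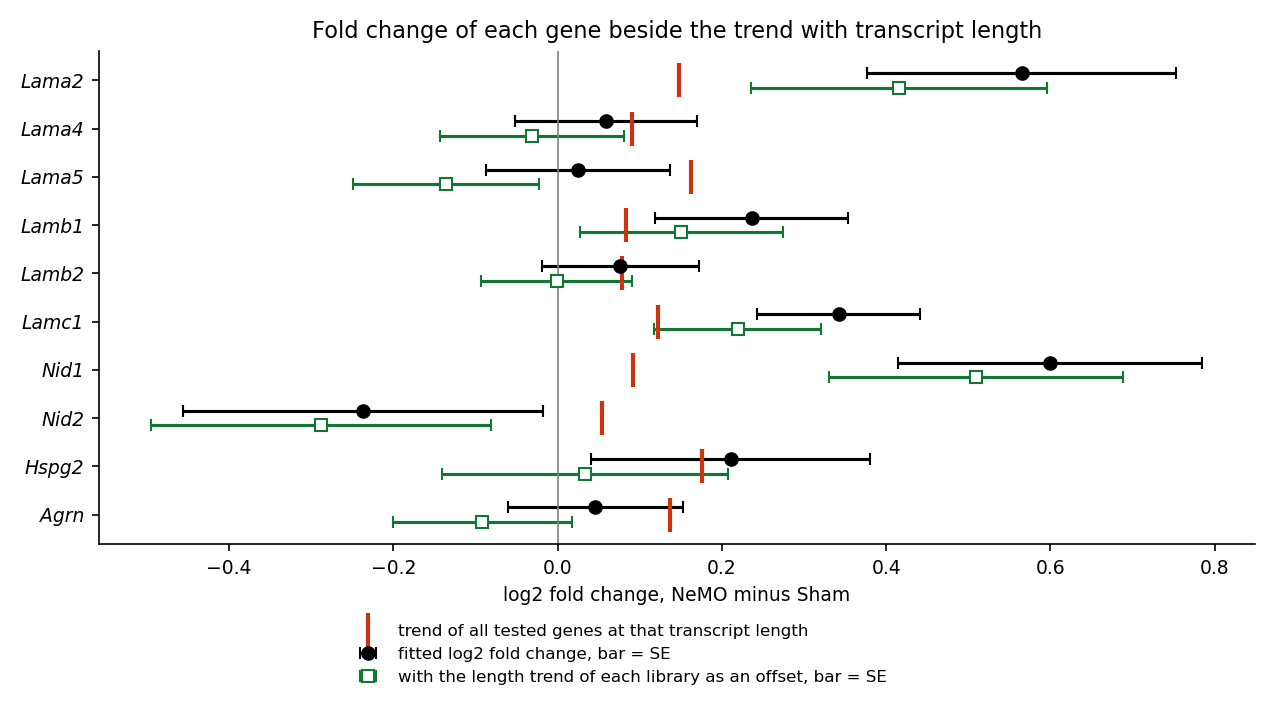
Log2 fold change of each gene (black circles, bar = SE), the same with each library's length trend as an offset (open squares, bar = SE), and the trend of all tested genes at that transcript length (red marks). With the offset Nid1 stood at 0.51 and Lama2 at 0.42, and Lama4, Lama5, Lamb2 and Agrn lay below 0. The offset takes out any group difference that follows length, technical or biological.

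On the mm10 assembly, with positions from GENCODE M21, Lamc1 spans 153218922 to 153332786 of chromosome 1 (minus strand), and Lama5 180176373 to 180225859 of chromosome 2 (minus strand). Hspg2 (137468769 to 137570630, plus strand) and Agrn (156165290 to 156197488, minus strand) share chromosome 4. Lamb2 lies at 108479736 to 108490530 of chromosome 9 (plus strand). Lama2 (26980036 to 27619758, minus strand) and Lama4 (38965515 to 39110188, plus strand) lie on chromosome 10, Lamb1 on chromosome 12 (31265234 to 31329644, plus strand), Nid1 on chromosome 13 (13437551 to 13512269, plus strand) and Nid2 on chromosome 14 (19751265 to 19811787, plus strand). All are protein-coding, from 20 exons in the longest transcript of Nid1 to 97 in that of Hspg2, and counts are per gene, so no exon or isoform is resolved.

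The partners of these proteins were taken as 6 lists of other genes. None of the 76 genes in them passed edgeR's test over all genes. Their counts below stand beside 9.38% higher and 9.14% lower among all genes tested at an unadjusted p under 0.05. The share higher was 24.99% among the genes at least as long as Nid2 (4876 nucleotides) and 4.93% among shorter genes. Median transcript lengths were 5871, 6615 and 5696 nucleotides for the laminin and netrin, collagen and assembly lists. They were 4020, 3957 and 4129 for the receptor, dystroglycan and heparan sulfate lists, below the length of Nid2. DESeq2 called 3.6% of all its genes higher, and its share among long genes was not computed. With the length offset the list medians were 0.02 for the other laminin and netrin chains, 0.33 for collagens, 0.31 for assembly proteins, −0.016 for receptors, −0.023 for the dystroglycan enzymes and 0.09 for the heparan sulfate enzymes. The remaining laminin and netrin chains (7 genes) stood at a median of 0.08 on the log2 scale, and at an unadjusted p under 0.05 1 was higher and 0 were lower. Lamb3, an epithelial laminin chain, measured 111 ± 12.7 CPM in NeMO and 102 ± 13.1 in Sham.

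The basement membrane collagens (9 genes) had a median of 0.40. At an unadjusted p under 0.05, 4 were higher and 2 lower, and DESeq2 called 3 higher (Col4a1, Col4a2 and Col7a1). The type IV collagen chains Col4a1 and Col4a2, which form the second network of the sheet, measured 1551 ± 464 CPM in NeMO against 883 ± 157 in Sham, and 968 ± 271 against 563 ± 157 (edgeR adjusted p = 0.145 and 0.189, DESeq2 adjusted p = 0.00895 and 0.0265). In this list Col7a1 (anchoring fibrils) measured 21.3 ± 11.5 CPM in NeMO and 11.1 ± 1.37 in Sham (edgeR adjusted p = 0.145). Every NeMO library lay above every Sham library, by a narrow gap from 12.1 CPM in Sham replicate 3 to 12.7 in NeMO replicate 1. NeMO replicate 3 stood at 38.2 CPM. For Col18a1 (the endostatin precursor) every NeMO library lay below, at 214 ± 8.11 CPM against 247 ± 19.6 (edgeR adjusted p = 0.154). Without overlap over all genes tested were 4.39% higher and 3.81% lower.

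Assembly and accessory proteins (10 genes) had a median of 0.41, with 4 higher at an unadjusted p under 0.05 and 2 higher in DESeq2. Sparc, a collagen-binding matrix protein, measured 2319 ± 1119 CPM in NeMO and 1673 ± 83.0 in Sham, and Tinagl1 293 ± 39.5 and 280 ± 30.7. The 2 that DESeq2 called are Pxdn, the peroxidase that crosslinks type IV collagen, and Frem2, of the Fraser complex. Pxdn had an edgeR adjusted p of 0.133 and a DESeq2 adjusted p of 0.0234, and Frem2 had 0.0786 and 0.00151. Receptors and their partners (19 genes) had a median of 0.07. At an unadjusted p under 0.05, 3 were higher and 1 lower, and DESeq2 called 2 higher. Itgb1, the beta subunit of most laminin-binding integrins, measured 1490 ± 221 CPM in NeMO and 1204 ± 114 in Sham (edgeR adjusted p = 0.269), and the heparan sulfate carrier Sdc1 432 ± 19.8 and 442 ± 58.7. Itga6, an alpha subunit of laminin receptors, stood at 129 ± 19.1 against 99.5 ± 3.78 CPM with no overlap (edgeR adjusted p = 0.121, DESeq2 adjusted p = 0.0285).

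The enzymes that build the laminin-binding sugar on dystroglycan (13 genes) had a median of 0.03. At an unadjusted p under 0.05, 2 were higher and 1 lower, and DESeq2 called 2 higher. Their abundant members were Pomgnt1, at 72.8 ± 4.93 CPM in NeMO and 77.8 ± 7.68 in Sham, and B3galnt2, at 74.1 ± 5.61 and 59.6 ± 4.01 with no overlap, a fitted 0.36 on the log2 scale (SE 0.06, edgeR adjusted p = 0.0691). The heparan sulfate enzymes (18 genes), which modify the chains on perlecan and agrin, had a median of 0.11. At an unadjusted p under 0.05, 6 were higher and 0 lower, and DESeq2 called 3 higher. Sulf2 measured 202 ± 10.8 CPM in NeMO and 200 ± 19.4 in Sham, and Extl3 131 ± 19.1 and 144 ± 14.9. Sulf1, the other extracellular sulfatase, measured 121 ± 31.6 and 77.8 ± 9.85 CPM with no overlap (edgeR adjusted p = 0.141, DESeq2 adjusted p = 0.0120). Col7a1, Col18a1, Pxdn, Frem2, Itga6 and Sulf1 were singled out after their values were seen.

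Markers of urothelium and smooth muscle were present in every library, with summed levels of 5426 to 8673 CPM for 8 urothelial genes and 28210 to 52054 CPM for 8 smooth muscle genes. NeMO replicate 3, which had the highest Lama2 and Nid1, also had the highest sum of 6 fibroblast markers (9486 CPM, where Sham ran from 5382 to 6967) and of 7 endothelial markers (477 CPM, Sham 300 to 367). Its fibroblast sum came mostly from Col1a1 (5092 CPM) and Dcn (2864 CPM), and the markers did not move together. Col1a1, Dcn, Lum and Pdgfra were highest of all 8 libraries there, while Dpt (143 CPM) and Pi16 (264 CPM) were lowest. The same library had the lowest sums of smooth muscle (28210 CPM) and adipocyte markers (324 CPM, Sham 819 to 2373). NeMO replicate 2, lowest in NeMO for 8 members, had the lowest fibroblast and endothelial sums, 4785 and 274 CPM. Of the fibroblast markers, Col1a1 (1666 CPM) and Pdgfra (106 CPM) were lowest of all 8 libraries there. Dcn and Lum were lowest in Sham replicate 4, and Dpt and Pi16 in NeMO replicate 3. Of the endothelial markers, Cdh5 was lowest in Sham replicate 3 and Erg in Sham replicate 4, and the others in NeMO replicate 2. Across groups, all 5 adipocyte markers were below 0 (median −1.18 on the log2 scale), as were 7 of 8 urothelial markers (−0.35) and all 5 Schwann cell markers (−0.43), while all 7 endothelial markers (0.15) and 4 of 5 pericyte markers (0.15) were above 0. The medians were −0.57 for 4 skeletal muscle, −0.24 for 4 mesothelial and −0.14 for 5 macrophage markers. None of these marker genes passed edgeR's test. Positive log2 fold changes made up 48.3% of all genes tested and 72.9% of those at least as long as Nid2. Over all its genes DESeq2 called 3.6% higher and 2.72% lower. DESeq2 called 2 adipocyte and 4 urothelial markers and 1 gene of the mesothelial list (Upk3b) lower, and 1 pericyte marker (Pdgfrb) higher. Upk3b had means of 282 CPM in NeMO and 378 in Sham. The other mesothelial genes, Msln, Wt1 and Lrrn4, had 25.2, 10.1 and 10.8 in NeMO and 43.6, 9.87 and 11.8 in Sham. Whether Upk3b reads mesothelium or urothelium in these libraries was not tested. Smooth muscle and fibroblast markers had medians of −0.03 and 0.02, and of −0.0039 and −0.061 with the length offset. The part of these cell types in the members' values was not tested.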

How the data were processed

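Per the labels' protocols, polyA RNA of 8 mouse bladder samples went through a directional kit and single-end sequencing. The authors deposited whole-number read counts per gene symbol, 1 table per library. Tools in the submitters' processing notes are featureCounts, STAR, Trimmomatic and DESeq2, on mm10. The annotation, strand setting and handling of multi-mapping reads are unknown from those sources. Titles gave group and replicate number, and file names the batch mark.

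Genes were tested with edgeR 4.0.16 (R 4.3.3): filterByExpr by group (minimum count 10, minimum total 15), TMM scaling, and the quasi-likelihood F-test (robust) on group plus batch, two-sided, Benjamini-Hochberg over 16370 genes, threshold 0.05. SE is the log2 fold change divided by the root of F. DESeq2 1.42.0 and limma 3.58.1 were alternatives, beside other scalings, no filter, no batch term, each batch alone, replicate blocks, length and GC offsets (splines with 4 degrees of freedom on log2 CPM, prior count 2) and each library left out. Lengths and GC content come from GENCODE M21, and 98.9% of tested genes had a length. At 1 CPM a gene had about 27 to 36 reads per library; the members had 491 to 28553. The gene test was tested on simulated data. Ratios between members used two-sided exact permutation tests. The members, lists and ratios were chosen with earlier results of these data known. Of each other list, up to 3 genes past the threshold were to be named or, with none, the 2 most abundant. A gene that this rule would name is not reported here.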

Additional observations from a re-analysis of the deposited data

Results flagged for a closer look

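In the Sham group the Lama5 level of replicate 1 (518 CPM) stood apart from the other 3 libraries (462 to 470 CPM): its gap to the nearest took up 0.864 of the group's whole range, above Dixon's 95% critical value for 4 samples. It was the only library to do so among 32 groups of 4 values, the 10 genes and 6 ratios in NeMO and Sham, where chance flags about 1 group in 20. Without Sham replicate 1 the log2 fold change of Lama5 was 0.07 in place of 0.02.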

How the results depend on the processing

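The number of genes past edgeR's threshold over the whole series, 7 higher and 5 lower, depended on the setting. It was 543 and 410 in DESeq2, 115 and 57 without the filter, 11 higher in limma-trend, 1 lower without the batch term, 0 and 0 in batch 1 alone (1756 at an unadjusted p under 0.05) and 0 higher in batch 2 alone. Leaving out 1 library gave 0 to 323 higher and 0 to 329 lower. Whether replicate numbers pair the libraries was not settled. Correlations of same-numbered NeMO and Sham libraries ran from −0.01 to 0.32, and those of different-numbered ones from −0.249 to 0.255. Of the NeMO libraries, 2 of 4 correlated best with their own number. The replicate block with batch gave 2 higher and 0 lower, and the block in place of batch 0 and 0 (2648 at an unadjusted p under 0.05).

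Members called higher numbered 3 in DESeq2, 0 to 1 with 1 library left out (Lama2, without NeMO replicate 1) and 0 in every other setting run, and none was called lower in any. In DESeq2 the other lists had 3 collagens, 2 assembly genes, 2 receptor genes, 2 dystroglycan enzymes and 3 heparan sulfate enzymes called higher; without the filter 1 assembly gene and 2 dystroglycan enzymes were. With 1 library left out, the highest counts were 1 higher and 1 lower for other laminin chains, 1 collagen, 2 assembly genes, 1 receptor gene, 1 dystroglycan enzyme and 1 heparan sulfate enzyme, and the lowest 0. The members' median stayed between 0.09 and 0.22 with 1 library left out.

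Lama2, Lamb1, Lamc1, Nid1 and Nid2 kept their direction in all 20 alternatives. Lama4 turned to −0.17 in batch 2, −0.031 with the length offset, −0.023 with the length and GC offset and −0.015 to 0.19 with 1 library left out. Lama5 turned to −0.10 in batch 1, −0.0095 with the replicate block and batch, −0.14 and −0.089 with the 2 offsets, and −0.10 to 0.15 with 1 library left out. Lamb2 turned to −0.031 in batch 2 and −0.0011 with the length offset, and Hspg2 to −0.23 in batch 2. Agrn turned to −0.046 in batch 1, −0.092 and −0.038 with the 2 offsets, and −0.047 to 0.12 with 1 library left out. With 1 library left out Hspg2 ran from 0.070 to 0.46 and Nid2 from −0.46 to −0.092. The ratio of Lama4 to Lama5 was 0.30 and −0.43 in batches 1 and 2 and −0.17 to 0.13 with 1 library left out; Hspg2 to Agrn was 0.50 and −0.47, and −0.013 to 0.30. The cause was not tested for any of these.

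Over the union of annotated exons, levels per kilobase in NeMO and Sham were 6.496 and 4.65 for Lama2, 17.98 and 17.6 for Lama4, and 24.3 and 20.9 for Lamb1, with 51.1 for Lamb2 in NeMO and 43.4 for Lamc1 in Sham. On that scale Nid2 stood above Lama2 in Sham and below it in NeMO. Within a batch, and in the replicate block over 4 pairs (0.125, the smallest 4 pairs allow), the exact test cannot pass the threshold, so the ratios were compared there by value.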
